A study of Mus musculus with 16 samples.

Results

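The interleukin-6 (IL6) family and STAT3 signaling were examined in 10 genes, chosen by symbol among the 55414 gene identifiers of each count file: the ligands *Il6*, *Il11*, *Lif* and *Clcf1*, the receptor chains *Il6ra*, *Il6st*, *Osmr* and *Lifr*, the transcription factor *Stat3* and its feedback inhibitor *Socs3*. All 10 were found, and all 10 passed the filter of at least 10 counts summed over the compared libraries in every comparison. The cells were chondrocyte-enriched cultures from the epiphyses of newborn mice, with males and females pooled, and they were either wild type (control) or heterozygous for *Notch2tm1.1Ecan*, a global knock-in allele with a premature stop codon, so that NOTCH2 lacks its PEST domain, is slowly degraded and gains function. Each genotype received PBS vehicle or 50 ng/ml of tumor necrosis factor α (TNFα), the exposure lasted 6 h, and this gave 4 groups of 4 libraries of polyadenylated RNA. The labels give a serum-free period for the TNFα groups only, whereas the paper describes it for vehicle and TNFα alike. If the labels are right, TNFα and the loss of serum cannot be told apart in a comparison of TNFα with vehicle, and the comparisons of genotypes within a treatment are not touched.

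Cytokines of this family act through the shared receptor chain gp130, the product of *Il6st*. IL6 and IL11 first bind a receptor of their own and then bring gp130 together with itself, whereas LIF and cardiotrophin-like cytokine join gp130 to the LIF receptor, and oncostatin M joins it to the oncostatin M receptor. The paired chains activate Janus kinases (JAK), which phosphorylate STAT3, and STAT3 induces *Socs3*, whose product binds gp130 and JAK and ends the signal. In cartilage, the family is known for its part in joint inflammation and matrix loss, and IL6 is a transcript that nuclear factor κB (NF-κB) induces. Transcript levels say nothing of the phosphorylation of STAT3, which is the activating step.

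The libraries held between 3439726 and 44237300 counts on genes, with a median of 17062419, and the shallowest library was replicate 4 of *Notch2tm1.1Ecan* with TNFα. *Heyl*, a Notch target, ranged from 0.078 to 0.543 CPM (counts scaled to a common library size) in the 8 control libraries and from 1.14 to 2.32 CPM in the 8 mutant libraries, so the genotypes did not overlap. It was 1 of 6 Notch genes chosen to check the genotype, of which 3 were called higher in mutant cells with vehicle and 2 with TNFα. *Hes1*, *Hey1*, *Hey2* and *Nrarp* were not called between genotypes with TNFα. Without control TNFα replicate 4, *Hes1* was called higher in mutant cells (1.04 on the log2 scale, adjusted p = 0.00097 by edgeR). With that library its value was 0.62 (adjusted p = 0.211). Control vehicle replicate 4 stood apart from the other 7 vehicle libraries. On the first principal component, which held 71.5% of the variance, it lay at -14.1, against -67 to -62.8 for the others, and *Nfkbia*, a NF-κB target, was at 68.6 CPM in it and at 17 to 25.1 CPM in the others. Control TNFα replicate 4 lay at 45.4 on that component, against 58.2 to 64.1 for the other TNFα libraries. On the second component, which held 8.32% of the variance, *Notch2tm1.1Ecan* TNFα replicate 4, the shallowest library, lay at -63.7. The other mutant TNFα libraries lay at -5.08 to -3.98 on it, and the libraries of the other groups at -16.2 to 19.3. Whether depth accounts for this was not tested. Where leaving out the control libraries of replicate 4 changed the call of a gene named for that comparison, the value without them stands beside it.

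The chondrocyte label was checked with 10 markers, all of them above 3 counts in at least 1 library, and *Col2a1*, the collagen of cartilage, ranged from 13592 to 39612 CPM. The summed CPM of the 10 markers differed between the groups, with a range of 50332 to 53619 in control vehicle, 31206 to 36812 in *Notch2tm1.1Ecan* vehicle, 34861 to 41440 in control TNFα and 19570 to 21555 in *Notch2tm1.1Ecan* TNFα. The 11 macrophage markers summed to 68.7 to 75.2 CPM in control vehicle and 130 to 153 CPM in *Notch2tm1.1Ecan* vehicle, and to 76.8 to 92.8 CPM in control TNFα and 160 to 187 CPM in *Notch2tm1.1Ecan* TNFα. Of these, 8 were higher in mutant than in control cells with vehicle and 9 with TNFα, where 6.19 and 5.63% of all genes tested were higher. The 6 fibroblast and perichondrium markers summed to 20383 to 22222 CPM in control vehicle, 24108 to 26499 in *Notch2tm1.1Ecan* vehicle, 19782 to 21602 in control TNFα and 24356 to 27843 in *Notch2tm1.1Ecan* TNFα. Most of this was *Col1a1* and *Col3a1*, with means of 13993 and 6300 CPM in control vehicle. In mutant cells, 4 were higher and 1 lower with vehicle, and 5 and 1 with TNFα, where 4.35 and 4.31% of all genes tested were lower. The lower 1 was *Dcn* (-0.36 and -0.24 on the log2 scale). Of the 6 markers of T, B and NK cells, none exceeded 3 counts in any library, and among the 4 neutrophil markers *S100a9*, *Ly6g* and *Mpo* did not either. The 4 endothelial markers summed to 6.01 to 8.55 CPM in control and 15 to 18.6 CPM in mutant cells with vehicle, and to 8.58 to 11.2 and 16 to 21.4 CPM with TNFα. The 4 skeletal muscle markers summed to 17.1 to 21.1 and 28.8 to 33.3 CPM with vehicle, and overlapped with TNFα. The part that these cells have in the results was not tested, and fewer cells of a type and less RNA per cell cannot be told apart in these libraries.

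The stretches before the listed start sites of *Il6*, *Lif* and *Socs3* are shown because *Il6* and *Lif* are the ligands that rose with TNFα, *Socs3* had the largest fall of the 10, and matches to the factors named in this study lie in them. They are RefSeq promoter sequences, listed there on GRCm38.p6, and their places on GRCm39 were found by exact match. *Il6* is shown from 250 to 1 bases before the start site (chr5:30217862-30218111, plus strand), *Lif* from 250 to 101 bases before it (chr11:4207318-4207467, plus strand) and *Socs3* from 164 to 135 bases before it (chr11:117860327-117860356, minus strand). In GENCODE M39 the *Socs3* stretch lies inside the gene. Of its 8 transcripts there, 0 hold the first 50 bases after the listed start site unbroken, so that start site is uncertain. The bases before the start of the gene in GENCODE M39 were not searched. Capitals mark the matches, and all are written in the direction of transcription.
Il6: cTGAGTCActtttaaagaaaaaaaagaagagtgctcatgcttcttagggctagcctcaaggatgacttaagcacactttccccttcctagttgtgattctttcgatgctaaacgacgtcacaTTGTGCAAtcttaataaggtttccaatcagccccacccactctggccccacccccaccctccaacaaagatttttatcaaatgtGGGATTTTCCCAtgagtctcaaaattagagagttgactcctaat
Lif: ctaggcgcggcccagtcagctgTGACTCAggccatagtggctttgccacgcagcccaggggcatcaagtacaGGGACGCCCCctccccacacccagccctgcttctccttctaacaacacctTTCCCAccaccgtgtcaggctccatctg
Socs3: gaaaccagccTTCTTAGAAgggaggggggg

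The capitals of *Il6* are, from left to right, a match to AP-1 (TGANTCA), a match to C/EBP on the opposite strand (TTGCNNAA), and a match to the NF-κB motif whose last 4 bases are also part of an opposite-strand match to the RBPJ motif (TGGGAA), the DNA-binding partner of Notch. Those of *Lif* are matches to AP-1, NF-κB and, on the opposite strand, RBPJ, with no overlap between them. The capitals of *Socs3* are the match to the STAT motif (TTCNNNGAA). Both strands were searched over 300 bases, from 250 before to 50 after the start site, in the 11 promoters listed for 9 of the 10 genes. *Clcf1* was not in the promoter list. NF-κB was matched for *Il6* and *Lif*, STAT for *Socs3*, C/EBP for *Il6*, RBPJ for *Il6*, *Lif* and *Il6ra*, and AP-1 for *Il6*, *Il11*, *Lif* and *Osmr*. Among all 32851 promoters of the list, 8.46% held the NF-κB match, 8.3% STAT, 25.6% RBPJ, 7.81% AP-1 and 10.8% C/EBP, so an RBPJ match is common. A match describes the letters only.

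Levels were compared between genes as CPM per kb of the canonical transcript. *Il6st* was at 126 ± 9.5 CPM per kb (SD, n = 4) in control vehicle, *Stat3* at 46.5 ± 1.38 and *Osmr* at 24.8 ± 1.71. By this length, the order held in all 4 groups with no overlap between neighbors. *Socs3* and *Clcf1* came next in control vehicle, at 12.9 ± 1.24 and 12.4 ± 1.27 CPM per kb, and overlapped each other. *Lifr* at 1.25 ± 0.341, *Lif* at 1.07 ± 0.426, *Il11* at 0.708 ± 0.26, *Il6ra* at 0.569 ± 0.0484 and *Il6* at 0.287 ± 0.238 CPM per kb followed, each overlapping its neighbor. Among the receptor chains, gp130 and the oncostatin M receptor were thus the highest and the chain that binds IL6 was the lowest, in each of the 4 groups. With TNFα the order changed below *Osmr*. In control TNFα, *Clcf1* at 6.45 ± 1.05, *Socs3* at 4.71 ± 0.94 and *Lif* at 4.6 ± 0.742 CPM per kb overlapped as neighbors, and were followed without overlap by *Lifr* at 3.13 ± 0.228 and *Il6ra* at 1.33 ± 0.184. *Il6*, at 0.664 ± 0.246, and *Il11*, at 0.587 ± 0.123, overlapped at the bottom. In *Notch2tm1.1Ecan* TNFα, *Il6* reached 1.42 ± 0.522 CPM per kb and overlapped *Il6ra* at 1.5 ± 0.249, whereas *Il11* was below both at 0.365 ± 0.0537. The order depends on the length used. Per kb of all exons of a gene, *Socs3* at 9.57 was above *Osmr* at 9.19 in mutant vehicle. By that length, *Il6* at 0.667 was below *Il6ra* at 1.46 in mutant TNFα.

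**Figure D1:**
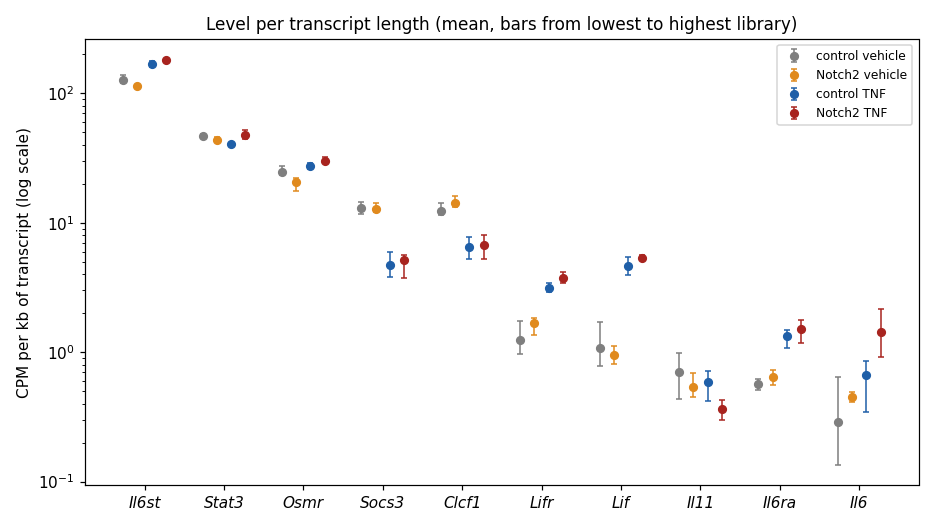
Level of the 10 transcripts in CPM per kb of canonical transcript (vertical axis, log scale), ordered by their mean in control vehicle. Points are means of 4 libraries and bars reach from the lowest to the highest library. *Il6st*, *Stat3* and *Osmr* keep the 3 highest places in every group, and *Il6* in control vehicle has the widest bar on this scale.

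The effect of TNFα was tested in each genotype with edgeR's quasi-likelihood test on the 8 libraries, with Benjamini-Hochberg adjustment over all genes tested, and a gene was called at an adjusted p under 0.05. In control cells, 6 of the 10 transcripts rose (*Il6*, *Lif*, *Il6ra*, *Il6st*, *Osmr* and *Lifr*) and 3 fell (*Clcf1*, *Stat3* and *Socs3*), where 23.3% of the 19338 genes tested were called higher and 20.9% lower. A rise of at least 2-fold was called for *Il6*, *Lif*, *Il6ra* and *Lifr*, and a fall of that size for *Socs3*, against 8.47 and 3.31% of all genes. In *Notch2tm1.1Ecan* cells, 7 rose, the same 6 and *Stat3*, and *Clcf1* and *Socs3* fell, where 22.6% of 19633 genes were called higher and 21.9% lower. The same 4 rose at least 2-fold and the same 1 fell, against 9.2 and 4.65% of all genes. The median log2 fold change was 0.32 for the 10 transcripts and 0.039 for all genes in control cells, and 0.65 and 0.026 in mutant cells. Libraries with TNFα and with vehicle did not overlap for 7 of the 10 in control cells and for 9 in mutant cells, where 42.2 and 40.9% of all genes did not overlap. Without both control libraries of replicate 4, the same number, 9, was called in control cells.

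The effect of the genotype was smaller. With vehicle, no member was called higher in *Notch2tm1.1Ecan* cells and only *Osmr* was called lower, where 6.19% of 19432 genes were called higher and 4.35% lower. By unadjusted p under 0.05, *Clcf1* and *Lifr* were higher, and DESeq2 called 0 higher. With TNFα, *Il6*, *Lifr* and *Stat3* were called higher in mutant cells and none lower, where 5.63% of 19227 genes were called higher and 4.31% lower. By unadjusted p under 0.05, *Il11* was lower, and DESeq2 called 0 lower. The genotypes did not overlap for 2 of the 10 with vehicle and for 4 with TNFα, where 16.1 and 15.3% of all genes did not. The genotype by TNFα interaction, which tests whether the change with TNFα differs between genotypes, was called for *Osmr* and *Stat3*, both with the larger value in mutant cells, where 0.267% of 21321 genes were called in that direction and 0.206% in the other. None was called in the other direction by edgeR, 0 at an unadjusted p under 0.05, and 0 by DESeq2.

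**Figure D2:**
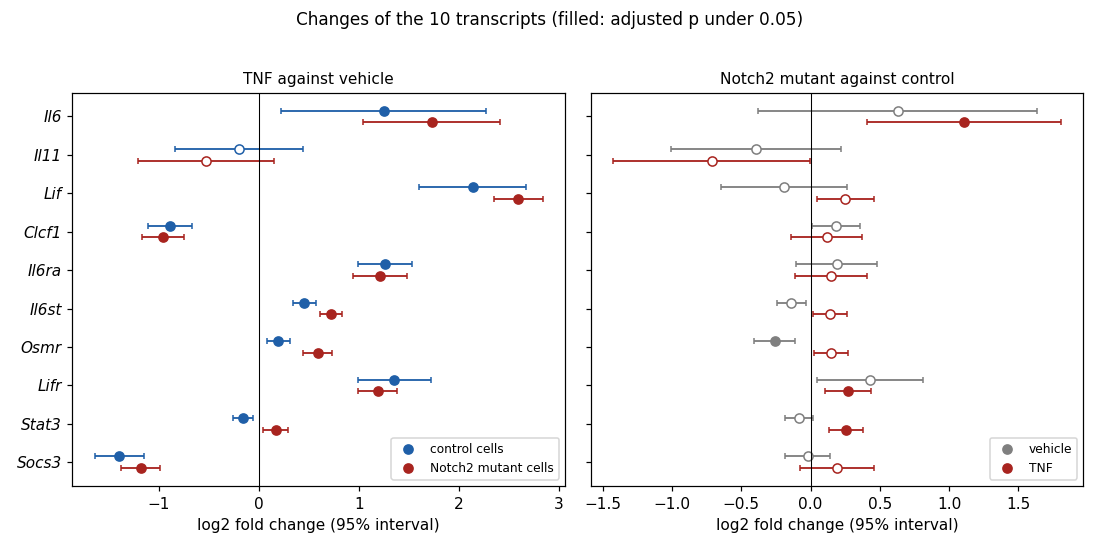
Log2 fold changes of the 10 transcripts with their 95% intervals from edgeR's quasi-likelihood fit, for TNFα against vehicle in each genotype (left) and for *Notch2tm1.1Ecan* against control under each treatment (right). Filled points have an adjusted p under 0.05. The left panel holds 9 filled points per genotype, whereas the right panel holds 1 with vehicle and 3 with TNFα, and the horizontal scales differ.

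*Il6* encodes the cytokine that names the family (ENSMUSG00000025746, chr5:30218112-30224979, plus strand, GRCm39), and an antisense long noncoding RNA, *Gm42450*, lies in its span without sharing exons. Its counts were low. Control vehicle replicates 1 to 4 held 3, 2, 4 and 12 counts, which are 0.167, 0.153, 0.261 and 0.728 CPM, and *Notch2tm1.1Ecan* vehicle replicates held 7, 10, 9 and 24 counts, which are 0.496, 0.519, 0.472 and 0.563 CPM. Control TNFα replicates were at 0.39, 0.978, 0.688 and 0.976 CPM (5, 18, 12 and 19 counts), and *Notch2tm1.1Ecan* TNFα replicates were at 1.04, 1.6, 2.44 and 1.39 CPM (16, 28, 43 and 5 counts). All 4 mutant TNFα libraries lay above every other library, whereas control TNFα overlapped control vehicle through replicate 4 of the latter. With TNFα, *Il6* rose 2.37-fold in control cells (log2 1.25 ± 0.493 SE, adjusted p = 0.0445) and 3.31-fold in mutant cells (log2 1.73 ± 0.334 SE, adjusted p = 0.000103) by edgeR. Without both control libraries of replicate 4, the rise in control cells was 1.86 on the log2 scale (adjusted p = 0.012), and without that of vehicle alone it was 2.00 (adjusted p = 0.00376).

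*Il6* was 2.15-fold higher in mutant than in control cells with TNFα (log2 1.11 ± 0.342 SE, adjusted p = 0.0359 by edgeR). The adjusted p of that difference was 0.0513 with DESeq2, and from 0.0788 to 0.276 when control TNFα replicate 1 or 3, or *Notch2tm1.1Ecan* TNFα replicate 2 or 3, was left out. With vehicle the difference was 0.63 on the log2 scale, with a 95% interval of -0.38 to 1.64, and was not called (adjusted p = 0.515 by edgeR). Without control vehicle replicate 4, the 1 control library that overlapped the mutant ones, it was 1.38 (adjusted p = 0.114). The interaction was 0.48, with an interval of -0.76 to 1.71 (adjusted p = 0.886 by edgeR), and changed sign to -0.30 without control vehicle replicate 4. At these counts, a larger rise in mutant than in control cells was not detectable, nor was it shown to be absent. The call of the rise in control cells was likewise lost in 6 of the 8 fits that left out 1 of its libraries (every one except control vehicle replicate 4 and control TNFα replicate 1), with adjusted p from 0.0588 to 0.143, and with DESeq2 (0.0727).

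*Lif* encodes leukemia inhibitory factor (ENSMUSG00000034394, chr11:4207557-4222514, plus strand). Control vehicle replicates were at 3.56, 3.14, 3.65 and 6.86 CPM and control TNFα replicates at 15.8, 20, 22 and 16.2 CPM. *Notch2tm1.1Ecan* replicates were at 4.04, 4.52, 3.46 and 3.26 CPM with vehicle and at 21, 22.6, 22.6 and 20.6 CPM with TNFα. TNFα and vehicle did not overlap in either genotype, and the 2 genotypes overlapped under both treatments. *Lif* showed the largest rise of the 10, 4.4-fold in control cells (log2 2.14 ± 0.234 SE, adjusted p = 6.85e-05) and 6.05-fold in mutant cells (log2 2.60 ± 0.118 SE, adjusted p = 2.01e-16), by edgeR. The rise in control cells was 2.52 on the log2 scale without both libraries of replicate 4. Between genotypes, *Lif* differed by 0.25 with TNFα (interval 0.04 to 0.46, adjusted p = 0.128 by edgeR, and 0.0428 without control TNFα replicate 3) and by -0.19 with vehicle (interval -0.65 to 0.26), and the interaction was 0.46 (adjusted p = 0.645), which fell to 0.086 without both libraries of replicate 4.

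*Il11* and *Clcf1* did not rise with TNFα. *Il11*, the gene of interleukin 11 (ENSMUSG00000004371, chr7:4775372-4785858, minus strand), was at 1.06, 1.91, 1.7 and 0.849 CPM in control vehicle and 1.17, 0.815, 1.2 and 1.39 CPM in control TNFα. In *Notch2tm1.1Ecan* cells it was at 1.35, 0.883, 0.891 and 1.05 CPM with vehicle and 0.586, 0.742, 0.682 and 0.835 CPM with TNFα. The 4 mutant TNFα libraries were below the 4 mutant vehicle libraries without overlap, but none of its tests was called. The log2 change with TNFα was -0.20 (interval -0.84 to 0.44) in control and -0.53 (interval -1.21 to 0.16) in mutant cells, and the difference between genotypes with TNFα was -0.71 (interval -1.43 to -0.001, adjusted p = 0.233 by edgeR).

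*Clcf1* encodes cardiotrophin-like cytokine (ENSMUSG00000040663, chr19:4264292-4273546, plus strand). Its exons overlap those of *Gm45928* on the same strand, so its counts are uncertain. Vehicle libraries ranged from 21.1 to 26.4 CPM in control and 24.3 to 29.5 CPM in mutant cells, and TNFα libraries from 9.67 to 14.4 and 9.74 to 15 CPM. TNFα and vehicle libraries did not overlap in either genotype. *Clcf1* fell by 0.89 on the log2 scale in control (SE 0.105, adjusted p = 4.03e-07) and by 0.96 in mutant cells (SE 0.102, adjusted p = 1.13e-08), by edgeR. The genotypes differed by 0.12 with TNFα (interval -0.14 to 0.37) and by 0.18 with vehicle (interval 0.01 to 0.36, adjusted p = 0.205), neither of which was called.

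**Figure D3:**
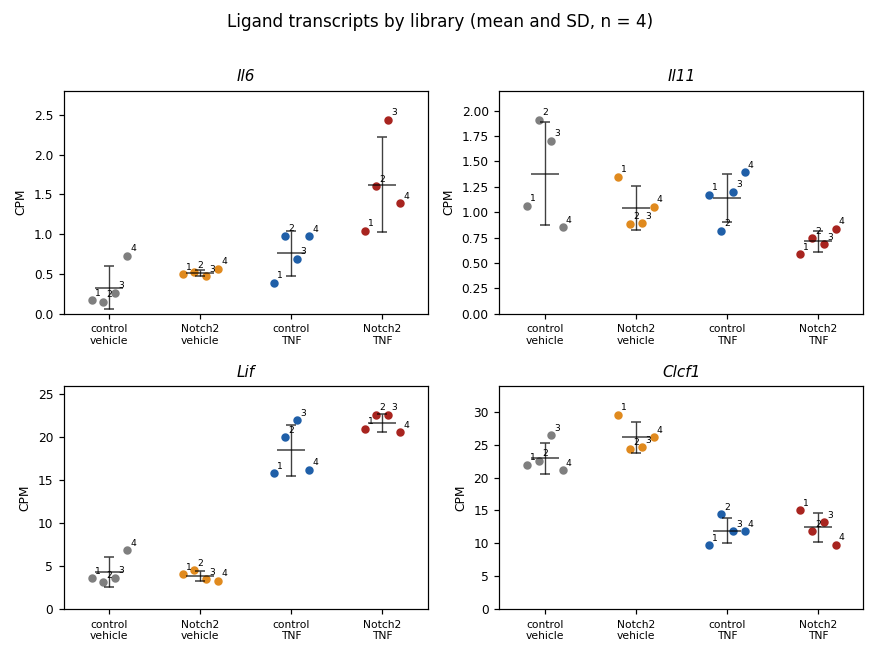
CPM of the 4 ligand transcripts in each of the 16 libraries (points, numbered by replicate), with the mean and SD of each group of 4. *Lif* with TNFα sits at 15.8 to 22.6 CPM against 3.14 to 6.86 with vehicle, *Clcf1* moves the opposite way, and the 4 *Notch2tm1.1Ecan* TNFα points of *Il6*, from 1.04 to 2.44 CPM, are the highest of the panel.

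The receptor chains rose with TNFα in both genotypes. *Il6ra*, the chain that binds IL6 (ENSMUSG00000027947, chr3:89771366-89820719, minus strand), was at 5.18, 4.44, 4.7 and 5.34 CPM in control vehicle and 11.6, 12.9, 12.3 and 9.25 CPM in control TNFα. In mutant cells it was at 5.67, 4.83, 5.61 and 6.26 CPM with vehicle and 10.1, 13.4, 13 and 15.3 CPM with TNFα. Every TNFα library was above every vehicle library, and the genotypes overlapped. The rise was 2.4-fold in control (log2 1.26 ± 0.132 SE, adjusted p = 6.67e-08) and 2.31-fold in mutant cells (log2 1.21 ± 0.13 SE, adjusted p = 1.29e-08) by edgeR. A long noncoding RNA on the opposite strand, *Gm42809*, shares exon positions with *Il6ra*, and the strand setting of the counting is not given in the sources used here.

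*Lifr* encodes the receptor of LIF (ENSMUSG00000054263, chr15:7120095-7226970, plus strand). It was at 12.1, 9.64, 10.7 and 17.3 CPM in control vehicle and 34.2, 31.5, 29.7 and 29.2 CPM in control TNFα, and at 13.5, 17.7, 18.4 and 17.5 CPM in mutant vehicle and 34, 34.4, 41.4 and 39.5 CPM in mutant TNFα. The ligand and its receptor were thus both at least 2-fold higher with TNFα. *Lifr* rose 2.56-fold in control (log2 1.36 ± 0.161 SE, adjusted p = 9.3e-05) and 2.28-fold in mutant cells (log2 1.19 ± 0.0965 SE, adjusted p = 9.43e-11) by edgeR. In mutant cells it was 0.27 higher than in control cells with TNFα on the log2 scale (SE 0.0817, adjusted p = 0.0311), with overlap between replicates. That call was lost with all 16 libraries in the fit (adjusted p = 0.261) and in 5 of the 8 fits without 1 library (control TNFα replicates 2, 3 and 4 and *Notch2tm1.1Ecan* TNFα replicates 3 and 4, adjusted p from 0.0512 to 0.229). With vehicle the difference was 0.43 (adjusted p = 0.17), and without control vehicle replicate 4, the highest of its group, it was 0.62 and was called (adjusted p = 0.00053).

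*Il6st* encodes gp130 (ENSMUSG00000021756, chr13:112600604-112646620, plus strand). Control vehicle replicates were at 1050, 1055, 1052 and 1217 CPM and control TNFα replicates at 1550, 1409, 1392 and 1466 CPM. Mutant replicates were at 1006, 976, 983 and 1010 CPM with vehicle and 1562, 1588, 1598 and 1582 CPM with TNFα. The mutant libraries lay below all control libraries with vehicle and above all of them with TNFα. The rise with TNFα was 0.46 on the log2 scale in control (SE 0.0526, adjusted p = 4.22e-06) and 0.72 in mutant cells (SE 0.0533, adjusted p = 7.82e-12) by edgeR. Neither genotype difference was called, at -0.14 with vehicle (adjusted p = 0.0937, and 0.0329 without *Notch2tm1.1Ecan* vehicle replicate 1) and 0.14 with TNFα (adjusted p = 0.168). The interaction was 0.27, with an adjusted p of 0.0999 by edgeR, 0.0458 without *Notch2tm1.1Ecan* TNFα replicate 4 and 0.0114 by DESeq2.

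*Osmr* encodes the oncostatin M receptor (ENSMUSG00000022146, chr15:6843053-6904450, minus strand). Control replicates were at 133, 133, 130 and 150 CPM with vehicle and 158, 153, 151 and 144 CPM with TNFα, which overlapped. Mutant replicates were at 96, 122, 119 and 119 CPM with vehicle and 161, 160, 167 and 176 CPM with TNFα, which did not. With vehicle, all 4 mutant libraries were below the control libraries, and with TNFα all 4 were above them. *Osmr* rose by 0.19 on the log2 scale in control (SE 0.0558, adjusted p = 0.0067) and by 0.59 in mutant cells (SE 0.0705, adjusted p = 8.62e-08) by edgeR. The interaction was 0.40 (SE 0.0928, adjusted p = 0.0319), and its call was lost in 9 of the 16 fits without 1 library (control vehicle replicates 1, 2 and 4, control TNFα replicates 2, 3 and 4, and *Notch2tm1.1Ecan* TNFα replicates 1, 2 and 3, adjusted p from 0.0512 to 0.0905). Without control vehicle replicate 4 it was 0.34 (adjusted p = 0.0821). The difference with vehicle was -0.26 (SE 0.0707, adjusted p = 0.0222), and was -0.22 without control vehicle replicate 4 (adjusted p = 0.0622) and -0.27 without replicate 2 (adjusted p = 0.0512). With TNFα it was 0.14 and was not called (adjusted p = 0.139).

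*Stat3* encodes the transcription factor that gp130 activates (ENSMUSG00000004040, chr11:100775924-100830450, minus strand). Some of its exon positions are shared with *Stat5a* on the opposite strand. Control replicates were at 210, 210, 222 and 208 CPM with vehicle and 183, 181, 188 and 186 CPM with TNFα. Mutant replicates were at 196, 192, 207 and 209 CPM with vehicle and 202, 214, 221 and 238 CPM with TNFα. In control cells every TNFα library was below every vehicle library, whereas in mutant cells the highest were with TNFα and the groups overlapped. *Stat3* fell by 0.16 on the log2 scale in control cells (SE 0.0459, adjusted p = 0.00647) and rose by 0.17 in mutant cells (SE 0.0607, adjusted p = 0.0275) by edgeR. The interaction was 0.33 (SE 0.08, adjusted p = 0.0413).

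That interaction of *Stat3* was 0.35 without both control libraries of replicate 4 (adjusted p = 0.0209 by edgeR) and from 0.30 to 0.37 when single libraries were left out. Its call was lost in 12 of those 16 fits, all except the ones without control vehicle replicate 4, *Notch2tm1.1Ecan* vehicle replicate 1, control TNFα replicate 4 and *Notch2tm1.1Ecan* TNFα replicate 1. The rise in mutant cells was lost in 3 of 8 such fits (*Notch2tm1.1Ecan* vehicle replicate 2 and *Notch2tm1.1Ecan* TNFα replicates 2 and 3, adjusted p from 0.0531 to 0.088), whereas the fall in control cells was called in all 8. With TNFα, all 4 mutant libraries were above the 4 control libraries, and the difference was 0.26 (SE 0.0612, adjusted p = 0.00528 by edgeR), 1.19-fold, which was called in all 8 fits without 1 library. With vehicle the difference was -0.08 (interval -0.18 to 0.02, adjusted p = 0.367).

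*Socs3* encodes the inhibitor that STAT3 induces and that ends gp130 signals (ENSMUSG00000053113, chr11:117856905-117860898, minus strand). Control replicates were at 35, 33, 38.8 and 31.1 CPM with vehicle and 10.1, 11.2, 13.2 and 15.8 CPM with TNFα. Mutant replicates were at 38.1, 33.5, 32.5 and 32.2 CPM with vehicle and 15, 14.9, 14.9 and 10 CPM with TNFα. Every TNFα library was below every vehicle library. *Socs3* fell by 1.40 on the log2 scale in control (SE 0.114, adjusted p = 9.79e-08) and by 1.18 in mutant cells (SE 0.0959, adjusted p = 5.12e-11) by edgeR, and by 1.59 in control cells without both libraries of replicate 4. The difference between genotypes was 0.19 with TNFα (interval -0.07 to 0.46) and -0.02 with vehicle (interval -0.18 to 0.14), neither of which was called.

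**Figure D4:**
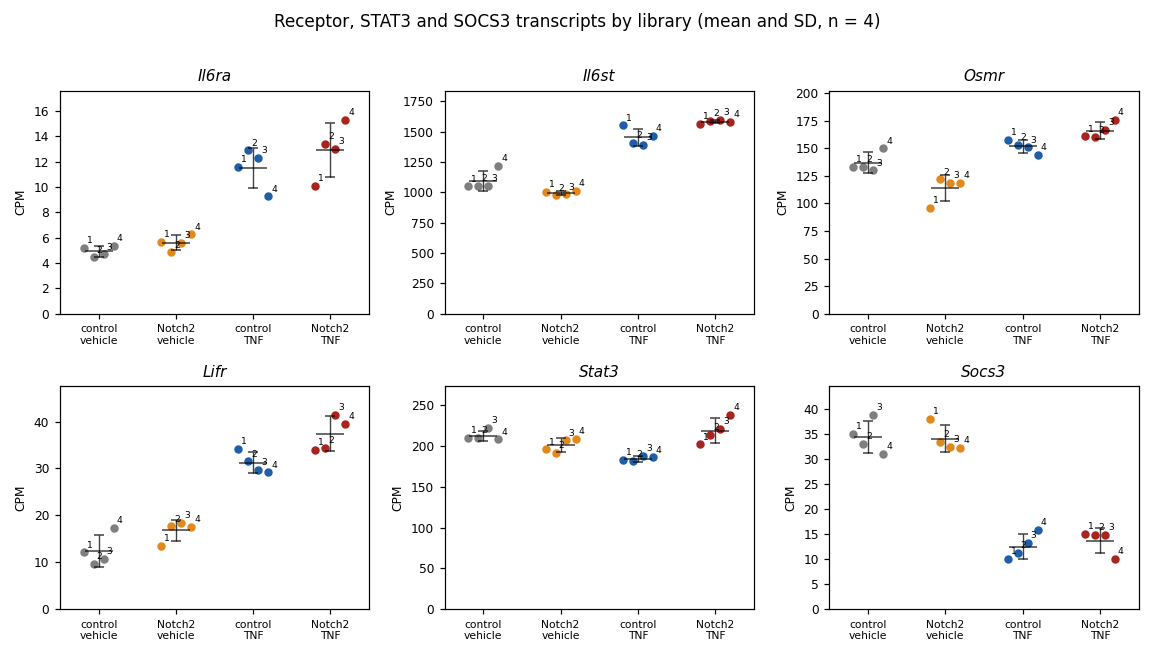
CPM of the 4 receptor chains, *Stat3* and *Socs3* in each of the 16 libraries (points, numbered by replicate), with the mean and SD of each group of 4 and vertical axes from 0. *Il6st* and *Osmr* of *Notch2tm1.1Ecan* cells lie below control with vehicle and above control with TNFα, *Stat3* is lowest in control TNFα at 181 to 188 CPM, and *Socs3* is at 10 to 15.8 CPM with TNFα against 31.1 to 38.8 with vehicle.

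The other genes of the pathway were counted in lists, with 2 rises and 2 falls named at most. Among all genes tested, 23.3% rose and 20.9% fell with TNFα in control cells, and 22.6 and 21.9% in mutant cells. Between genotypes, 6.19% were higher and 4.35% lower in mutant cells with vehicle, and 5.63 and 4.31% with TNFα. The counts of each list are to be read beside these shares. Counts at an unadjusted p under 0.05 have no such share here, so they are not to be read as an excess. Of the 6 JAK kinases and other STATs, 5 rose and 1 fell with TNFα in control cells, and 4 rose and 1 fell in mutant cells. The kinase *Tyk2* rose by 2.19 and 2.18 on the log2 scale in control and mutant cells. *Jak1*, the main kinase bound to gp130, fell by 0.21 and 0.23. *Jak1* was 0.35 higher in mutant than in control cells with vehicle and 0.34 higher with TNFα (adjusted p = 7.09e-06 and 0.000151 by edgeR), and *Jak2* was 0.42 higher with TNFα (adjusted p = 8.96e-06). *Jak2*, named after its values were seen, was the 1 gene of the list with an interaction, 0.51 (SE 0.0962, adjusted p = 0.00542 by edgeR). Without control TNFα replicate 4, *Tyk2* was lower in mutant cells with TNFα (-0.25, adjusted p = 0.00461 by edgeR), against a value of -0.18 with it that was not called (adjusted p = 0.113). *Jak2* was at 37.5 to 49.1 CPM in control vehicle, 36.1 to 42 in mutant vehicle, 78 to 82.3 in control TNFα and 103 to 110 CPM in mutant TNFα.

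Of the 11 genes of feedback inhibitors, phosphatases and adaptors, 5 rose and 2 fell with TNFα in control cells, and 4 rose and 4 fell in mutant cells. The falls in control cells were near the share of all genes, 20.9%. *Socs1*, a relative of *Socs3*, rose by 1.25 and 1.67 on the log2 scale in control and mutant cells, and *Socs2* fell by 1.30 and 1.86. *Socs1* thus rose, whereas *Socs2* and *Socs3* fell. *Ptpn11*, whose product SHP2 binds gp130, fell by 0.30 and 0.32 in control and mutant cells. *Cish* fell by 0.42 in mutant cells, and its value of -0.34 in control cells was not called (adjusted p = 0.115 by edgeR). *Ptpn6*, a phosphatase of blood-lineage cells, rose by 0.80 and 1.21, and was the 1 gene of this list that was higher in mutant than in control cells with TNFα (0.98, SE 0.2, adjusted p = 0.00116 by edgeR), beside the rise of the summed macrophage markers given above. Without control TNFα replicate 4, the adaptor *Gab1* was called too (0.24, adjusted p = 0.0474). With vehicle, edgeR and DESeq2 each called 0 of the 11 between genotypes, and 2 were higher in mutant cells at an unadjusted p under 0.05.

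Of the 4 other receptors, 2 rose and 1 fell with TNFα in either genotype. *Il27ra*, the receptor of interleukin 27, rose by 2.81 and 3.31 on the log2 scale, and *Cntfr*, a receptor of ciliary neurotrophic factor and of the *Clcf1* product, by 2.03 and 2.57, in control and mutant cells. The mean of *Cntfr* was 0.572 CPM in control vehicle, 0.744 in mutant vehicle, 2.37 in control TNFα and 4.19 CPM in mutant TNFα, and the genotypes differed with TNFα (0.81, SE 0.212, adjusted p = 0.0109 by edgeR). *Il31ra* fell, from a mean of 0.429 to 0.0272 CPM in control and from 0.321 to 0.0447 CPM in mutant cells. The means with TNFα lie under 3 counts, which are 0.156 to 0.872 CPM in the TNFα libraries. *Il31ra* thus passed the filter only through vehicle libraries, so it could only be called lower. Between genotypes with TNFα it was not tested. *Il11ra1*, the receptor of IL11, was 0.24 and 0.25 higher in mutant cells with vehicle and TNFα (adjusted p = 0.0176 and 0.00736 by edgeR). Of the 2 proteases known to shed IL6 receptor, *Adam17* rose by 1.58 and 1.65 in control and mutant cells and *Adam10* was not called.

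Among the 7 other ligands and soluble partners, *Cntf* and *Il31* had 3 counts or fewer in every library. With TNFα, 2 were called higher in mutant cells, *Il27* and *Ebi3*, the subunits of interleukin 27, at means of 0.175 ± 0.195 and 0.354 ± 0.243 CPM, with overlap between the groups. Their means in mutant vehicle were 0 and 0.0424 CPM, and 3 counts are 0.175 to 0.872 CPM in the mutant TNFα libraries. *Il27* and *Ebi3* thus passed the filter in mutant cells only through TNFα libraries, so they could only be called higher. In control cells *Il27* was not tested and *Ebi3* was not called (adjusted p = 0.472 by edgeR). *Osm*, the gene of oncostatin M, had means of 0 to 0.2 CPM over the 4 groups.

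Of 24 genes known as STAT3 targets, 13 rose and 7 fell with TNFα in control cells, and 12 rose and 7 fell in mutant cells. Many of them also answer to NF-κB or interferon. The largest rises were in acute-phase and interferon-response genes. *Saa3*, which encodes serum amyloid A3, rose by 4.64 on the log2 scale in control cells (SE 1.45, adjusted p = 0.042 by edgeR), where replicate 4 with vehicle held 63.3 CPM against 0.613 to 1.24 in the other 3 replicates, and by 9.68 in mutant cells. Its rise in control cells was 8.95 without both libraries of replicate 4 (SE 0.19, adjusted p = 8.69e-08). *Lbp*, the lipopolysaccharide-binding protein, rose by 3.38 and 3.66 in control and mutant cells, and *Irf1*, an interferon regulatory factor, by 3.28 and 4.16. Without those libraries, the rises in control cells were 4.10 for *Lbp* and 4.05 for *Irf1*. *Fos* fell by 1.91 and 2.42, and the kinase *Pim3* by 1.28 and 1.54. Between genotypes, 3 were higher and 5 lower in mutant cells with vehicle, and 4 were higher and 5 lower with TNFα, against 5 and 5, and 3 and 6, without the control library of replicate 4. Haptoglobin (*Hp*) was 0.48 and 0.72 higher and *Nnmt* 0.67 and 0.58 higher in mutant cells with vehicle and TNFα. *Lcn2*, a lipocalin that binds iron carriers, was lower in mutant cells (-0.57 with vehicle and -0.44 with TNFα), as were *Serpina3n* with vehicle (-0.37) and *Pim3* with TNFα (-0.39). For the interaction of the 24 targets, edgeR called 0 and DESeq2 1. At an unadjusted p under 0.05, 8 were in the higher and 5 in the lower direction. The share of all genes at that unadjusted threshold is not given, so whether these counts exceed it was not tested. Without both control libraries of replicate 4, 1 was called, *Lbp* (-0.44, adjusted p = 0.0134 by edgeR), and without control vehicle replicate 4 *Lbp* was 0.77 higher in mutant cells with vehicle (adjusted p = 4.69e-07), against 0.12 with it (adjusted p = 0.925).

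Of 11 genes known to control *Il6* transcription or the stability of its RNA, 9 rose and 0 fell with TNFα in control cells, and 10 rose and 0 fell in mutant cells. The count of falls was also 0 by DESeq2 and at an unadjusted p under 0.05. *Tnfaip3* and *Nfkbia*, which end NF-κB signals, had the largest rises, 3.77 and 3.37 on the log2 scale in control cells and 5.18 and 3.97 in mutant cells. The rises in control cells were 4.93 and 4.09 without both libraries of replicate 4, and 10 of the 11 were then called. With vehicle, *Nfkbiz*, a nuclear cofactor needed for *Il6*, and *Rbpj* were lower in mutant than in control cells (-0.49 and -0.27, adjusted p = 0.0383 and 0.00261 by edgeR), and *Nfkbiz* was not called without control vehicle replicate 4 (-0.32, adjusted p = 0.151). With TNFα, 4 were higher in mutant cells, namely *Tnfaip3* (0.39), *Nfkb1* (0.32), *Rela* (0.26) and *Zc3h12a* (0.31), the last encoding the nuclease regnase-1, which degrades *Il6* RNA. *Zc3h12a* was not called without control TNFα replicate 4 (0.24, adjusted p = 0.0775). *Rela* and *Zc3h12a* were named after their values were seen. For the interaction of this list, edgeR and DESeq2 each called 0, with 3 at an unadjusted p under 0.05, where the share of all genes is not given.

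**Figure D5:**
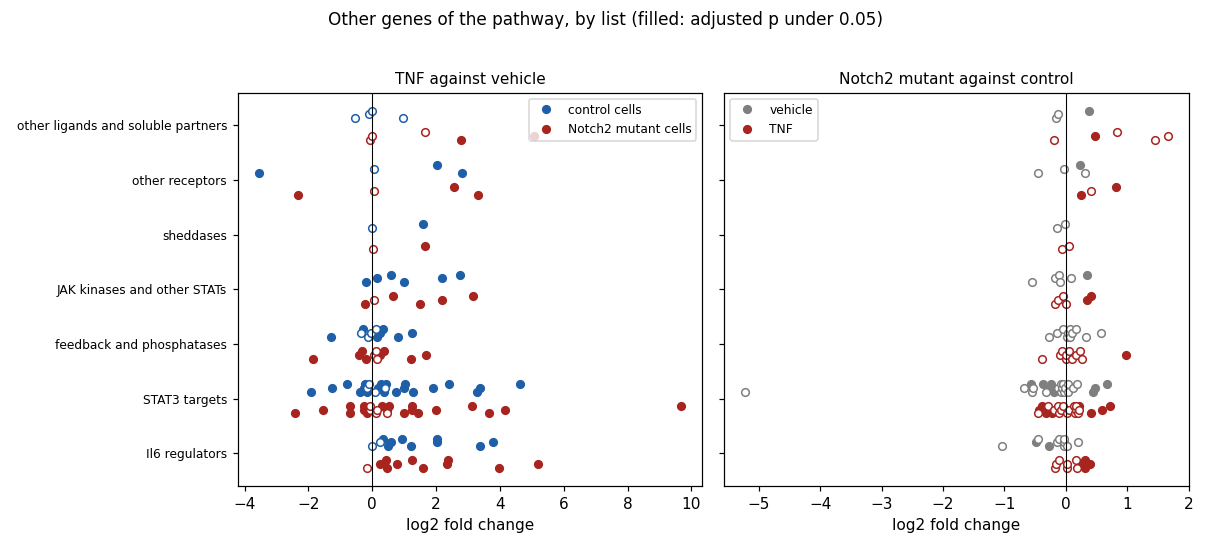
Log2 fold changes of the other pathway genes by list, for TNFα against vehicle in each genotype (left) and for *Notch2tm1.1Ecan* against control under each treatment (right). Each point is a gene that passed the filter, and filled points have an adjusted p under 0.05. With TNFα the *Il6* regulators lie to the right of 0 in both genotypes apart from 1 unfilled point each, the STAT3 targets and feedback genes lie on both sides, and the horizontal scales differ.

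The transcripts most like *Il6*, *Lif* and *Socs3* were sought by Pearson correlation of log2 CPM over the 16 libraries among 13412 genes with a mean of at least 1 CPM. Since the 16 points share 4 groups, a high value describes a shared pattern over genotype and TNFα. *Il6* was closest to *Ddah2* (r = 0.913), *Fmo1* (0.901) and *Samhd1* (0.898). *Lif* was closest to *Exoc3l4* (0.995), *Tnfaip2* (0.994) and *Irf1* (0.994), and *Socs3* to *Hnrnpab* (0.989), *Gatad2a* (0.988) and *Rtl3* (0.988). After each group's mean was removed, r was 0.672, 0.619 and 0.787 for the genes nearest *Il6*, 0.942, 0.904 and 0.889 for those nearest *Lif*, and 0.854, 0.849 and 0.862 for those nearest *Socs3*. Without control vehicle replicate 4 these were 0.388, 0.158 and 0.524 for *Il6*, 0.811, 0.649 and 0.601 for *Lif*, and 0.915, 0.849 and 0.862 for *Socs3*.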

How the data were processed

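RNA-Seq was performed on 16 libraries, 4 each of control and *Notch2tm1.1Ecan* chondrocyte-enriched cells with vehicle or TNFα. The authors deposited whole-number counts per Ensembl gene, made with htseq-count and not normalized. The paper gives HISAT2 and GRCm39 for the mapping, whereas the submitters' processing notes name HISAT2 2.1.0, SAMtools 1.9, Picard, HTSeq, DESeq2 and GRCm38. Coordinates here are those of GRCm39 (GENCODE M39). Entries that name no gene (5 per file) took 8.81 to 12.1% of a library's counts and were not used. The annotation lacked 665 identifiers, with 0.018% of the counts. The floor of 3 counts, 0.0678 to 0.872 CPM, covers counting error only.

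Counts were analyzed with edgeR 4.0.16 (TMM, robust quasi-likelihood, at least 10 counts summed over the compared libraries, Benjamini-Hochberg adjustment) in R 4.3.3. Each comparison of 2 groups was fitted to its 8 libraries and the interaction to all 16. SE is the log2 fold change divided by the root of F, and 95% intervals use the t distribution of the fit. CPM are TMM-scaled over the 16 libraries, and levels per kb use the Ensembl canonical transcript. Motifs were searched and figures drawn in Python 3.11.15. The fits were tested on simulated counts.

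The members, lists and alternatives were chosen with earlier results of these data known. All 10 members were named, and from each list at most 2 rises and 2 falls with the largest changes among called genes whose groups do not overlap. For *Il6*, *Lif* and *Socs3*, the 3 most similar genes were named too. Some genes that this rule selects are not reported here. The alternatives were DESeq2 1.42.0, RLE normalization, filterByExpr, no filter, other thresholds, all 16 libraries in the fit, a replicate block, and libraries left out. The fits of the lists without control replicate 4 were added after the data were seen. No fit of the lists without mutant TNFα replicate 4 is reported. The labels call the replicates biological without saying whether they are separate litters or cultures, so p-values measure the spread between these samples. Replicates of a group differed by more than counting noise, at 2.14 to 16.0 times the chi-square that counting alone gives.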

Additional observations from a re-analysis of the deposited data

Results flagged for a closer look

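6 of the 40 groups of 4 libraries had a highest or lowest library far from the others by Dixon's test at the 95% level, where chance gives about 1 in 20. In control vehicle, replicate 4 stood above the other 3 replicates for *Lif* (6.86 CPM), *Il6st* (1217 CPM) and *Osmr* (150 CPM), and replicate 3 for *Stat3* (222 CPM). Replicate 1 of *Notch2tm1.1Ecan* vehicle was lowest for *Osmr* (96 CPM), and replicate 4 of *Notch2tm1.1Ecan* TNFα, the shallowest library, was lowest for *Socs3* (10 CPM).

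The change with TNFα differed between the genotypes for *Osmr* (0.40 on the log2 scale) and *Stat3* (0.33) by the interaction test. Both were flagged for that difference, and their adjusted p-values of 0.0319 and 0.0413 by edgeR were near the threshold. Control vehicle replicate 4, which stands apart for *Osmr*, enters the first of these; without it the interaction of *Osmr* was 0.34 and was not called, and that of *Stat3* was 0.33 and was called.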

How the results depend on the processing

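With a further minimum of 1 on the log2 fold change, 5 members were called for TNFα in control and 5 in mutant cells, 0 and 1 between genotypes with vehicle and TNFα, and 0 for the interaction. Between genotypes with vehicle, 2 were called without a filter and 2 at an adjusted p under 0.1. With 1 library left out, 8 to 9 were called for TNFα in control cells, 8 to 9 in mutant cells, 0 (without control vehicle replicate 2) to 2 (without *Notch2tm1.1Ecan* vehicle replicate 1) between genotypes with vehicle, 1 (without *Notch2tm1.1Ecan* TNFα replicate 3) to 3 with TNFα, and 0 to 2 for the interaction. Without both control libraries of replicate 4, 1 interaction was called. For comparisons between genotypes that setting is the same as leaving out 1 library.

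No pairing of the samples by replicate number was seen in correlations, which cannot exclude that same-numbered libraries share a litter or culture. Same-numbered libraries correlated at -0.141 to 0.0847 in their deviations from the group means, and a library correlated best with its own number in 6 of 32 cases. The replicate block left 0 interactions called (*Osmr* 0.0523, *Stat3* 0.0639) and lost *Lifr* between genotypes with TNFα (0.0569, all adjusted p).

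Signs changed only for values that were not called: with 1 library left out, *Socs3* ranged from -0.084 to 0.040 and *Lif* from -0.31 to 0.10 between genotypes with vehicle, and the interactions from -0.30 to 0.71 for *Il6*, -0.16 to 0.037 for *Clcf1* and -0.14 to 0.064 for *Il6ra*. The signs turned without control vehicle replicate 3 for *Socs3*, without control vehicle replicate 4 for *Lif* and *Il6*, without control TNFα replicate 2 for *Clcf1*, and without that library, *Notch2tm1.1Ecan* vehicle replicate 4 or *Notch2tm1.1Ecan* TNFα replicate 1 for *Il6ra*. Without both control libraries of replicate 4, the interaction of *Il6* was -0.13. The cause was not tested. *Il6* gave no value between genotypes with vehicle under filterByExpr, which removes it. Low counts limit *Il6* and *Il11* most.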
